A study of Mus musculus with 16 samples.

Results

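Macrophages answer lipopolysaccharide (LPS) with a burst of gene induction and repression that is already large at 6 h and has partly receded at 24 h. The comparison described here asks whether that recession from 6 to 24 h differed in macrophages without the microRNA miR-155. For every gene the change from 6 to 24 h in wild-type (WT) cells was subtracted from the same change in miR-155 knockout (KO) cells, with the replicate number as a term of the fit. A negative difference therefore means that the gene moved further down, or less far up, in KO than in WT. The comparison rests on 8 of the 16 arrays of the series, 2 for each of WT at 6 h, WT at 24 h, KO at 6 h and KO at 24 h. All cells were macrophages grown from the bone marrow of male C57BL/6Jax mice for 9 days in 10 ng/mL of the growth factor M-CSF, and the cells at 6 and 24 h had received 100 ng/mL LPS. WT and KO groups shared strain, sex, growth and LPS dose and differed, by the labels, in genotype alone. The other 8 arrays, at 0 and 12 h, served to define the response and to estimate the spread. Neither the age of the mice, nor the design of the deletion, nor whether replicates were separate cultures or animals is given by the labels, so that p-values measure only the spread between these samples.

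LPS is sensed by Tlr4, which drives NF-kB and AP-1 and, through type I interferon, a second wave of interferon-stimulated genes. The response is then braked by feedback: inhibitors of signalling such as Socs1 and Tnfaip3, phosphatases such as Dusp1 and Inpp5d, proteins such as Zfp36 that destabilise cytokine mRNA, and the cytokine Il10. miR-155 is itself induced by LPS in macrophages and is known to repress several of these brakes, among them Socs1 and Inpp5d (SHIP1). The mature strands are shown because the deletion removes them, with the seed, bases 2 to 8, in capitals. They are taken from RefSeq on GRCm38.p6, where the 5p strand lies at chr16:84714143-84714165 and the 3p strand at chr16:84714182-84714202, both on the plus strand.
mmu-miR-155-5p: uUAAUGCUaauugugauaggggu
mmu-miR-155-3p: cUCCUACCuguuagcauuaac
With 0 probes on the array for Mir155 or its host gene, the absence of these strands in KO could not be checked.

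The values are log2 signals of single-colour arrays minus the 75th percentile of the array, so a value of 0 is the upper quartile of all probes and a difference of 1 is a doubling. Of 17917 genes tested, 14435 were well above background on all 8 arrays at 6 and 24 h. The arrays had upper quartile signals of 270.8 to 729.9 scanner units and 56.0% to 67.6% of their probes well above background. Replicates correlated at 0.9553 to 0.9733 across genes, which are not independent. Replicate number and scan session are the same thing in these files: the 8 arrays numbered 1 were scanned in session 1 and the 8 numbered 2 in session 2. Arrays with the same scan time in the file headers were taken to share a slide. In session 2 the WT arrays at 6 and 24 h were on slide 3 and the KO arrays on slide 4. Genotype and slide therefore cannot be told apart at these times in session 2. In session 1 WT at 6 and 24 h and KO at 24 h shared slide 2, while KO at 6 h lay on slide 1. Values with the slide as a term are given where they move a result.

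Macrophages of both genotypes changed widely from 6 to 24 h, and the changes were alike in direction. By limma with Benjamini-Hochberg adjustment at 0.05, 2487 genes rose in WT (13.9% of those tested) and 2888 fell (16.1%). In KO 2890 rose (16.1%) and 2854 fell (15.9%). Rises made up 46.3% of the calls in WT and 50.3% in KO, a split that moved with the scaling, to 60.2% and 59.9% under quantile normalization, to 65.9% and 59.0% under scaling to the median, and to 35.4% and 36.1% with normexp background correction capped at high local background. Without the replicate number as a term 1869 genes changed in WT and 2299 in KO. Of the genes that rose, 2173 rose in both genotypes, which is 87.4% of the WT list and 75.2% of the KO list. Of the genes that fell, 2155 fell in both, 74.6% of the WT list and 75.5% of the KO list. A gene called in one genotype alone was mostly moving the same way in the other, as in 689 of the 717 genes called higher in KO alone and 669 of the 733 called lower in WT alone. The WT and KO changes correlated across genes at r = 0.90 (genes are no independent replicates), and at 0.94 among the genes above background on all 8 arrays.

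The difference between the genotypes passed the threshold for no gene (0 of 17917, 0.0%, limma with Benjamini-Hochberg adjustment). At an unadjusted p under 0.05 there were 392 genes, 287 with a positive difference (1.6%) and the others with a negative one (0.586%). Most of these were dim on at least 1 of the 8 arrays. Among the 14435 genes above background on all 8 arrays 144 genes (0.998%) were under 0.05, 74 positive and 70 negative, and their smallest adjusted p was 1.0. The count of genes past the threshold was also 0 under every other setting tried, except quantile normalization, which called Noxa1 and Kcna6, both dim. KO and WT differed at 6 h in 2 of 17917 genes (0.0112%) and at 24 h in 0 (0.0%) by limma, with 609 and 996 genes at an unadjusted p under 0.05.

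The arrays set a limit on how small a difference could be seen. For genes above background on all 8 arrays the standard error of the difference had a median of 0.38, and the 95% interval reached a median of 0.86 to either side. The estimate lay within 1 of 0, a doubling either way, for 98.2% of these genes, but the whole interval lay within 1 of 0 for only 40.6% and within 2 for 88.8%.

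**Figure D1:**
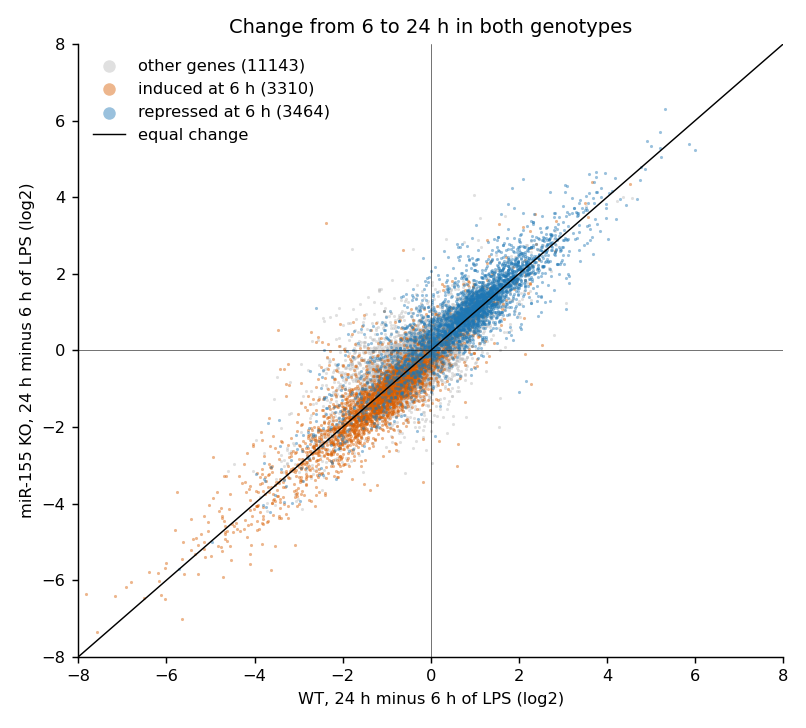
Change from 6 to 24 h of LPS in WT (x axis) and miR-155 KO macrophages (y axis), in log2, for 17917 genes; each point is a gene, orange for the 3310 genes induced at 6 h, blue for the 3464 repressed and grey for the rest, and the line marks an equal change. Most points lie along the line (r = 0.90 across genes), with the induced genes below 0 and the repressed genes above 0 in both genotypes.

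Induced and repressed genes were taken from 6 h against 0 h averaged over both genotypes, a choice that does not use the genotype difference. At 6 h 30.0% of genes tested were higher and 29.3% lower than at 0 h. With a log2 change of at least 1 as well, 3310 genes were induced and 3464 repressed. Averaged over the genotypes, 22.4% of all genes rose and 26.4% fell from 6 to 24 h. Of the induced genes 2218 fell by that average and 86 rose further, and of the repressed genes 2021 recovered and 265 fell further. The choice of the classes and this change share the 6 h arrays. These counts, and the declines, recoveries and shares kept given below, are therefore not independent of the choice.

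The decline of the induced genes and the recovery of the repressed genes were of similar size in both genotypes, with KO slightly ahead when the replicate number was the term and not when the slide was. The median change of the induced genes was −1.0 in WT and −1.09 in KO. Of the 3310, 1593 fell in WT and 1715 in KO. Their median difference was −0.10, against 0.03 over all genes, with −0.06 in session 1 and −0.17 in session 2. The repressed genes had a median change of 0.83 in WT and 0.97 in KO, and 1503 rose in WT and 1690 in KO. Their median difference was 0.12, with 0.15 in session 1 and 0.11 in session 2. Genes of a class are not replicates, so no test was made of these medians.

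Set against each genotype's own 0 h arrays, the median induced gene kept 51.4% of its 6 h change at 24 h in WT and 45.1% in KO. The median repressed gene kept 52.4% in WT and 45.9% in KO. By session the induced genes kept 42.9% in WT and 37.1% in KO in session 1, and 58.8% and 53.4% in session 2. The sessions thus stood further apart than the genotypes did. At 24 h 49.8% of induced genes were within 1 log2 unit of 0 h in WT and 54.8% in KO. For repressed genes these shares were 50.2% and 54.0%.

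**Figure D2:**
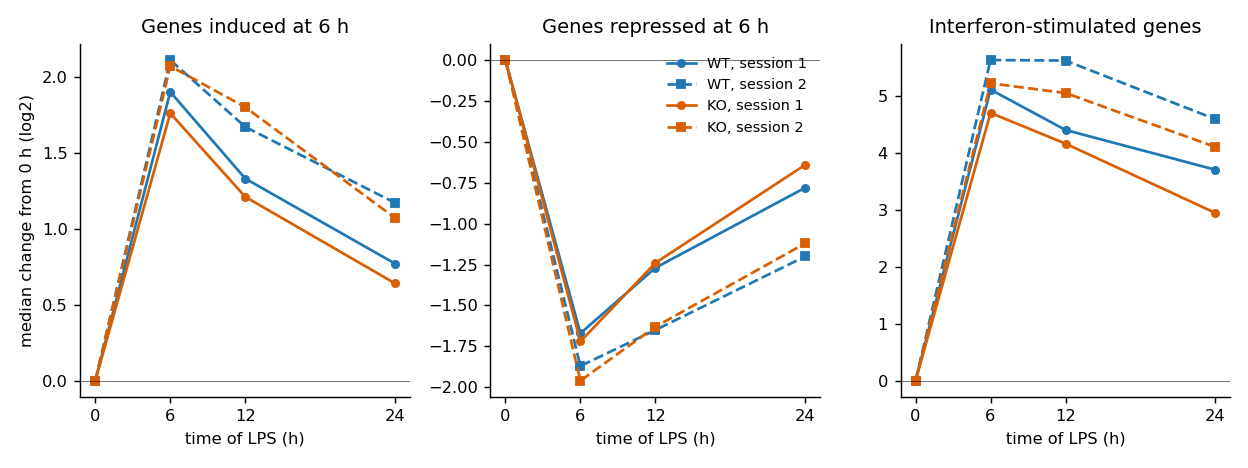
Median change from the same session's 0 h array of the same genotype (log2) against time of LPS (h), for the 3310 induced genes, the 3464 repressed genes and 55 interferon-stimulated genes; each line is 1 genotype in 1 scan session. At 24 h the KO line lies nearer 0 than the WT line of its session in all 3 panels, and the interferon-stimulated genes in KO stood at 4.71 and 5.23 at 6 h and 2.95 and 4.11 at 24 h, against 5.12 and 5.64, then 3.71 and 4.60, in WT.

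The gap between the class medians changed with the term of the fit, and why was not tested. In session 2, where the 6 and 24 h arrays of each genotype shared a slide, the median difference was −0.17 for induced and 0.11 for repressed genes. With the slide in place of the replicate number as the term, the median difference of the same genes was 0.04 for the induced class and −0.01 for the repressed class, and 0.08 and −0.03 when the classes were drawn anew under that term. Scaling arrays to their median moved the median of all genes from 0.03 to −0.11. Relative to the median of all genes, the induced genes of the fit stood at −0.13 and the repressed genes at 0.09 under either scaling. Without the first KO array at 24 h the induced median was −0.01, without the second WT array at 24 h it was 0.00, and the repressed median was 0.02 without that KO array.

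Inflammatory cytokines and chemokines fell steeply in both genotypes. For this list and those below, the shares over all genes tested were 16.1% falling in WT and 15.9% in KO. Rising genes made up 13.9% in WT and 16.1% in KO. Of 34 list members tested, 17 fell in WT and 18 in KO, with a median change of −2.81 in WT and −2.98 in KO. Vegfa, the vascular growth factor, was the 1 member that rose, by 3.03 in WT and 2.25 in KO. No member differed between the genotypes past the threshold, and the median difference was −0.18, with 0.02 in session 1 and −0.37 in session 2. The list holds 22 negative and 12 positive differences, and its median moved with single arrays, to 0.11 without the second WT array at 6 h, −0.03 without the first KO array at 6 h, −0.65 without the first WT array at 6 h, −0.62 without the first WT array at 24 h, and −0.51 and −0.55 without the second KO array at 6 and at 24 h.

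Il6, the acute-phase cytokine, was 7.25 and 6.98 in the WT arrays at 6 h and −0.70 and 2.53 at 24 h. The KO arrays read 7.61 and 7.59 at 6 h and 1.19 and 2.40 at 24 h. All 6 h arrays stood above all 24 h arrays, and at 24 h the genotypes overlapped. The fall was −6.20 ± 0.78 (standard error) in WT and −5.80 ± 0.78 in KO, and the difference was 0.40 with a 95% interval of −2.07 to 2.86. Il12b, the p40 subunit of interleukins 12 and 23, was 4.95 and 5.64 in WT at 6 h and −1.63 and −0.12 at 24 h. Its KO values were 5.63 and 6.17 at 6 h and −0.37 and 0.12 at 24 h. It fell by 6.17 in WT and by 6.02 in KO, and the difference was 0.15 (95% interval −1.67 to 1.97).

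Il27, which encodes the p28 subunit of interleukin 27, was 5.36 and 6.09 in WT at 6 h and 1.31 and 1.94 at 24 h. In KO it was 5.79 and 6.64 at 6 h and 0.52 and 1.28 at 24 h. In each session KO was above WT at 6 h and below it at 24 h. The fall was −4.10 ± 0.30 in WT and −5.32 ± 0.30 in KO, and the difference of −1.22 (95% interval −2.15 to −0.28) was −1.22 in each session, without passing the threshold. Il12a, the p35 subunit of interleukin 12, pointed the other way. Its WT arrays were −0.09 and −1.17 at 6 h and −4.99 and −5.64 at 24 h, and its KO arrays 0.27 and −0.43 at 6 h and −2.65 and −4.08 at 24 h. At 24 h both KO arrays lay above both WT arrays. Its change was −4.69 in WT and −3.28 in KO, both past the threshold, with a difference of 1.41 (95% interval −0.17 to 2.99).

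Tnf and Il1b, the first cytokines of the response, had wide intervals. The spread of a gene was estimated over all 16 arrays, so it also held the spread at 0 h. There the replicates of Tnf lay far apart, at 0.16 and 4.56 in WT and 0.22 and 4.72 in KO. Tnf was 7.96 and 7.48 in WT at 6 h, 4.34 and 6.10 at 24 h, and in KO 8.17 and 8.07, then 4.83 and 6.34. All 24 h arrays stood below all 6 h arrays. Its change did not pass in either genotype (−2.50 ± 1.23 in WT, −2.53 ± 1.23 in KO). The interval of its difference ran from −3.93 to 3.87, while the difference was 0.28 in session 1 and −0.34 in session 2. Il1b gave −2.57 ± 0.92 in WT and −2.13 ± 0.92 in KO, neither past the threshold, with a difference of 0.44 (−2.49 to 3.36). Ifnb1, the type I interferon gene, fell by 3.04 in WT and by 3.80 in KO, with a difference of −0.76 (−2.33 to 0.80).

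Among the chemokines Cx3cl1, a membrane-bound chemokine, was one of the 5 induced genes with the largest average fall, −6.11 ± 0.37 in WT and −6.38 ± 0.37 in KO. Cxcl10, an interferon-driven T cell attractant, was 9.90 and 8.69 in WT at 6 h and 8.38 and 8.0 at 24 h. The KO arrays read 10.37 and 8.89 at 6 h and 6.95 and 7.72 at 24 h, so that both KO arrays lay below both WT arrays at 24 h. Its fall passed in KO (−2.30, adjusted p = 0.0106) and not in WT (−1.11, adjusted p = 0.153), and the difference of −1.19 did not pass (95% interval −2.92 to 0.54). Ccl5, another T cell attractant, gave −0.57 in WT and −0.53 in KO and passed in neither. The kinase Lck and the caveolar protein Cav1 completed the largest falls. Lck fell by 6.52 in WT and by 6.46 in KO (difference 0.05, interval −0.99 to 1.09), and Cav1 by 6.41 and 5.78 (0.62, −2.41 to 3.66).

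Interferon-stimulated genes, the antiviral second wave, showed the lowest median difference of the 14 pathway lists, −0.42 against 0.03 over all genes. All 55 tested members were above background on all 8 arrays. From 6 to 24 h 22 of them fell in WT and 34 in KO, none rose in either, and their median change was −1.05 in WT and −1.36 in KO. Of the 55 members 54 belonged to the induced class. The difference was negative in both sessions for 46 (83.6%), against 39.7% of the induced genes and 25.1% of all genes. In the fit it was negative for 51 of 55 members, against 2000 of the 3310 induced genes and 8190 of all 17917. The exceptions were Parp9, Psmb8, Oasl2 and Ifi44, named because they are so few, with differences of 0.66, 0.03, 0.07 and 0.32. No member passed the threshold, and 0 of 55 had an unadjusted p under 0.05 by limma. These genes share a common driver and are not independent of each other.

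By time, the median over the list of KO minus WT was −0.05 in session 1 and 0.11 in session 2 at 6 h, −0.22 and −0.14 at 12 h, and −0.54 and −0.21 at 24 h. Of 55 members, 34 and 12 were lower in KO at 6 h in sessions 1 and 2, 40 and 39 at 12 h, and 52 and 43 at 24 h. At 0 h the medians were 0.16 and 0.35, with KO above WT. At 24 h both genotypes lay on slide 2 in session 1, while in session 2 WT lay on slide 3 and KO on slide 4. At 6 h the genotypes lay on different slides in each session, and what part the slide had was not tested.

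Irf1 and Slfn5 had the smallest p in this list. Irf1, a transcription factor of the interferon response, was 7.78 and 7.75 in WT at 6 h and 6.05 and 6.46 at 24 h. Its KO values were 7.40 and 7.82 at 6 h and 5.24 and 5.89 at 24 h, below both WT arrays. It fell by 1.51 in WT and by 2.04 in KO, and the difference was −0.54 (95% interval −1.14 to 0.07). Slfn5, a Schlafen family gene, was 6.88 and 7.83 in WT at 6 h, 5.23 and 6.39 at 24 h, and in KO 7.01 and 7.55, then 4.83 and 5.51. It fell by 1.55 in WT and by 2.11 in KO, with a difference of −0.56 (−1.25 to 0.12).

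The shift of the interferon-stimulated genes was carried unequally by the arrays. With the slide as the term its median was −0.06, with 33 of 55 members negative. It was −0.10 without the first KO array at 24 h and −0.80 without the second. It stayed below 0 in all 20 alternatives, but several of these could not move it. Leaving out the replicate number, using only the 8 arrays, another estimate of the spread and the authors' table keep the same estimate, −0.42. The probe filters also left it at −0.42, because all members were above background. Under median scaling it was −0.56, which is −0.45 relative to all genes, as it was under the main scaling.

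**Figure D3:**
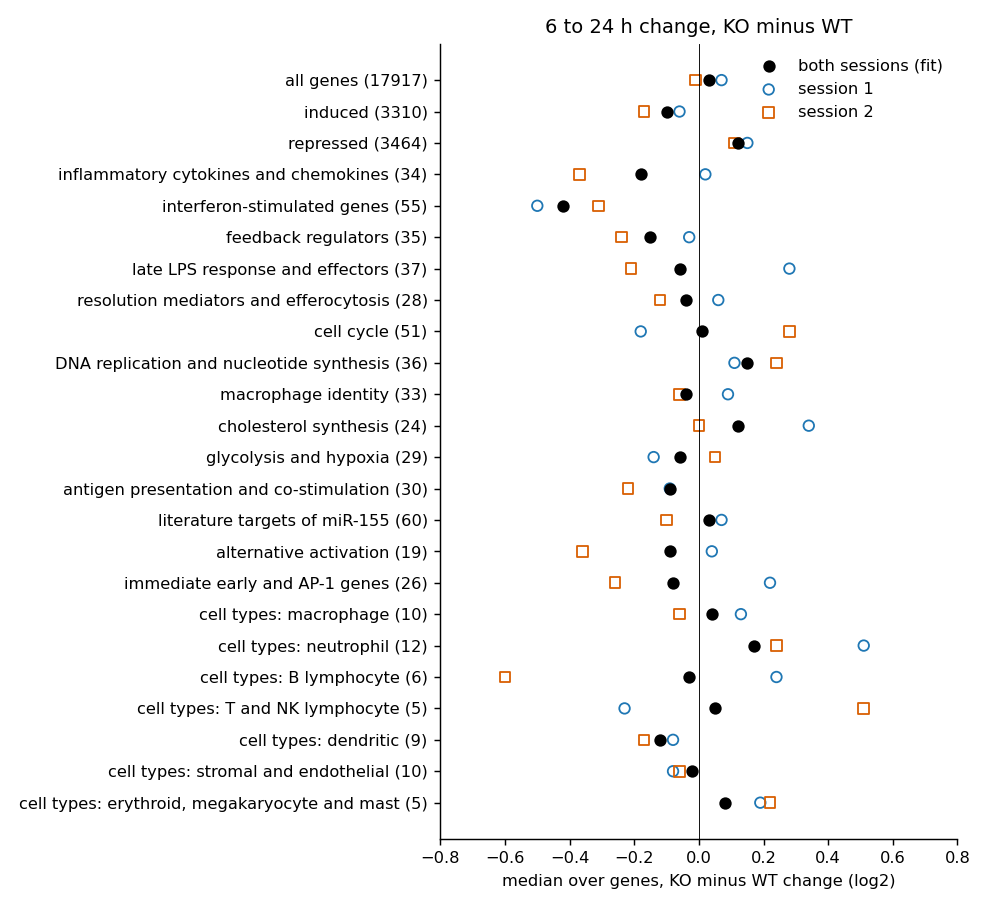
Median over the genes of each group of the difference between the KO and the WT change from 6 to 24 h (log2, x axis), for all genes, both classes and 21 gene lists, with the number of genes tested in brackets; black points are the fit, blue circles session 1 and orange squares session 2. The interferon-stimulated genes lie at −0.42, with −0.50 and −0.31 by session, while for many lists the sessions fall on either side of 0.

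Feedback regulators, the brakes of the response, declined with the cytokines. Of 35 members tested 13 fell in WT and 17 in KO, with medians of −1.20 and −1.57. The members that rose were the mRNA decay factors Zfp36l1 and Zfp36l2, by 2.55 and 1.37 in WT and 2.20 and 1.29 in KO, the phosphatase Inpp5d in both, and the decoy receptor Il1r2 in KO (1.80). The median difference was −0.15, with −0.03 in session 1 and −0.24 in session 2, and 26 of 35 were negative. It was 0.03 without the second WT array at 24 h, 0.00 without the second at 6 h, −0.35 without the first at 6 h and −0.23 without the first at 24 h, and −0.23 and −0.08 without the second KO array at 6 h and the first at 24 h.

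Atf3, a stress-induced repressor of Toll-like receptor targets, was the member with the smallest p. It was 6.71 and 7.40 in WT at 6 h and 5.70 and 6.75 at 24 h, and in KO 6.71 and 7.52 at 6 h and 4.86 and 6.09 at 24 h. The genotypes were level at 6 h, and at 24 h KO was lower within each session. It fell by 0.83 in WT and by 1.64 in KO, and the difference was −0.81 (95% interval −1.42 to −0.19), with −0.83 and −0.78 by session, short of the threshold. Socs1, the inhibitor of Jak kinases and a target of miR-155, was 5.78 and 5.59 in WT at 6 h and 3.66 and 3.81 at 24 h. In KO it was 5.45 and 5.55, then 3.01 and 3.69. It fell by 1.95 in WT and by 2.15 in KO, with a difference of −0.20 (−0.93 to 0.53).

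Tnfaip3 (A20), which edits ubiquitin chains in NF-kB signalling, fell by 2.94 in WT and by 3.06 in KO, with a difference of −0.12 (−2.11 to 1.87). Zfp36, which marks cytokine mRNA for decay, fell by 1.62 and 2.43 (−0.81, −2.34 to 0.73). Il10, the anti-inflammatory cytokine, fell by 2.39 and 3.32 (−0.93, −3.33 to 1.47). Dusp1, a phosphatase of p38 and JNK, fell in KO by 2.09 and gave −1.42 in WT without passing. The deubiquitinase Cyld gave −0.55 in WT and fell by 0.95 in KO (difference −0.40). Socs3 (−1.84 and −2.03) and Il1rn (−0.97 and −1.30), the receptor antagonist of interleukin 1, passed in neither genotype.

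Late response genes and effectors changed less than the cytokines. Of 37 members tested 15 fell in WT and 13 in KO (16.1% and 15.9% over all genes), with medians of −0.72 and −0.77. Hp (haptoglobin) rose in both genotypes, by 2.39 and 2.79, and Fpr1, a formyl peptide receptor, in KO (1.64). The median difference was −0.06, with 0.28 in session 1 and −0.21 in session 2. Nos2, the inducible nitric oxide synthase, was 3.29 and 2.75 in WT at 6 h and −0.04 and 1.27 at 24 h. The KO arrays read 3.61 and 2.69, then −1.89 and 0.63, and at 24 h each KO array was below the WT array of its session, although the groups overlapped. The change was −2.40 in WT and −3.78 in KO, past the threshold in both, with a difference of −1.38 (95% interval −3.88 to 1.13). Ptgs2 (cyclo-oxygenase 2) fell by 4.16 and 4.55, with a difference of −0.39 (−3.78 to 3.0). Acod1, which makes itaconate, gave −1.09 and −1.15 without passing.

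Mmp9, the gelatinase, had the smallest p of the effectors. It was −0.65 and −1.09 in WT at 6 h and −1.69 and −2.38 at 24 h, and in KO −0.84 and −1.18, then −1.17 and −1.26. It fell in WT by 1.16 and gave −0.21 in KO, and the difference was 0.95 (0.06 to 1.85), not past the threshold. The cystine transporter Slc7a11 fell in WT by 2.67 and gave −1.63 in KO (difference 1.05, −0.72 to 2.82). Its arrays of session 1 stood over 3 above those of session 2 in every group.

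Antigen presentation and co-stimulation genes fell in 8 of 30 members in WT and in 12 in KO (16.1% and 15.9% over all genes). Their medians were −0.86 and −1.01, with a median difference of −0.09. Cd40, the co-stimulatory receptor, fell by 3.81 in WT and by 4.52 in KO (difference −0.71, −1.59 to 0.18). Tap2, a peptide transporter of the class I pathway, fell in KO by 1.75 and gave −0.97 in WT (difference −0.78, −1.85 to 0.29).

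The genes with the smallest p for a negative difference, among those above background on all 8 arrays, were Zbtb11, Tenm4, Adssl1, Supt7l, Prh1, Ociad2, Kdr, Atf3, Il27 and Il15ra. Their differences ran from −1.54 for Tenm4 to −0.81 for Atf3, none passed the threshold, and sharing a sign in both sessions was a condition for naming them. By the array's annotation on mm9 the probe of Il27 lies at chr7:133736137-133736196, that of Atf3 at chr1:192994547-192994606, that of Kdr at chr5:76329309-76329368 and that of Tenm4 at chr7:104055032-104055091. Il15ra, the receptor chain that presents interleukin 15, was 3.62 and 4.49 in WT at 6 h and 1.94 and 3.0 at 24 h. Its KO values were 3.49 and 4.90 at 6 h and 0.08 and 2.26 at 24 h. It fell by 1.59 in WT and by 3.03 in KO, with a difference of −1.44 (95% interval −2.56 to −0.32). Kdr, a receptor of vascular endothelial growth factor, was 1.34 and 2.37 in WT at 6 h and 0.84 and 1.47 at 24 h. In KO it was 0.79 and 2.56, then −0.91 and 0.06, and at 24 h both KO arrays lay below both WT arrays. It fell in KO by 2.10 and gave −0.70 in WT, with a difference of −1.40 (−2.45 to −0.35).

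Of the remaining genes with a negative difference, Tenm4 and Zbtb11 rose in WT. Tenm4, a teneurin adhesion protein, was −2.53 and −2.71 in WT at 6 h and −1.01 and −1.74 at 24 h, and in KO −2.43 and −2.60, then −2.85 and −2.78. It rose by 1.24 in WT and gave −0.30 in KO. Zbtb11, a zinc finger protein, was −1.33 and −1.90 in WT at 6 h and −0.21 and −0.81 at 24 h, and in KO −1.04 and −1.68, then −0.75 and −1.68. It rose by 1.1 in WT and gave 0.15 in KO, with a difference of −0.95 (−1.56 to −0.35). Adssl1, a purine synthesis enzyme, fell in both genotypes, with changes of −1.52 in WT and −2.49 in KO. Supt7l, Prh1 and Ociad2 fell in KO, by 0.84, 1.23 and 1.29, and gave 0.14, −0.23 and 0.03 in WT.

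The genes with the smallest p for a positive difference were Reep6, Spn, Adamts20, Zfp957, Maged2, Wfdc21, Ap1ar, Dmbt1, Rell2 and Sgf29. Their differences ran from 0.77 for Maged2 to 1.90 for Wfdc21, and none passed the threshold. The probe of Spn lies at chr7:134277313-134277372 and that of Adamts20 at chr15:94174421-94174480, on mm9. Spn, the surface sialoprotein CD43, was repressed at 6 h. It was −0.48 and −1.48 in WT at 6 h and −0.03 and −1.22 at 24 h, and in KO −0.38 and −1.67, then 1.63 and −0.12. The genotypes were close at 6 h, and at 24 h each KO array was above the WT array of its session. It rose in KO by 1.78 and gave 0.35 in WT, with a difference of 1.43 (95% interval 0.51 to 2.35). Adamts20, a secreted protease, was −3.59 and −4.16 in WT at 6 h and −4.72 and −5.30 at 24 h, and in KO −4.54 and −5.07, then −4.04 and −4.91. It fell in WT by 1.13 and gave 0.33 in KO, with a difference of 1.46 (0.50 to 2.43).

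Wfdc21, Ap1ar, Dmbt1 and Maged2 fell in WT by 1.36, 1.07, 1.21 and 0.69, with KO changes of 0.54, 0.02, −0.12 and 0.08. Wfdc21 stood at −0.06 to 0.69 in session 1 and at −4.20 to −4.87 in session 2 in the 6 h arrays, so that the session moved it further than LPS did. Rell2, Reep6 and Zfp957 rose in KO by 1.46, 0.65 and 0.86, with WT changes of 0.40, −0.13 and 0.07. Sgf29, a subunit of the SAGA complex as is Supt7l, gave −0.59 in WT and 0.46 in KO.

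**Figure D4:**
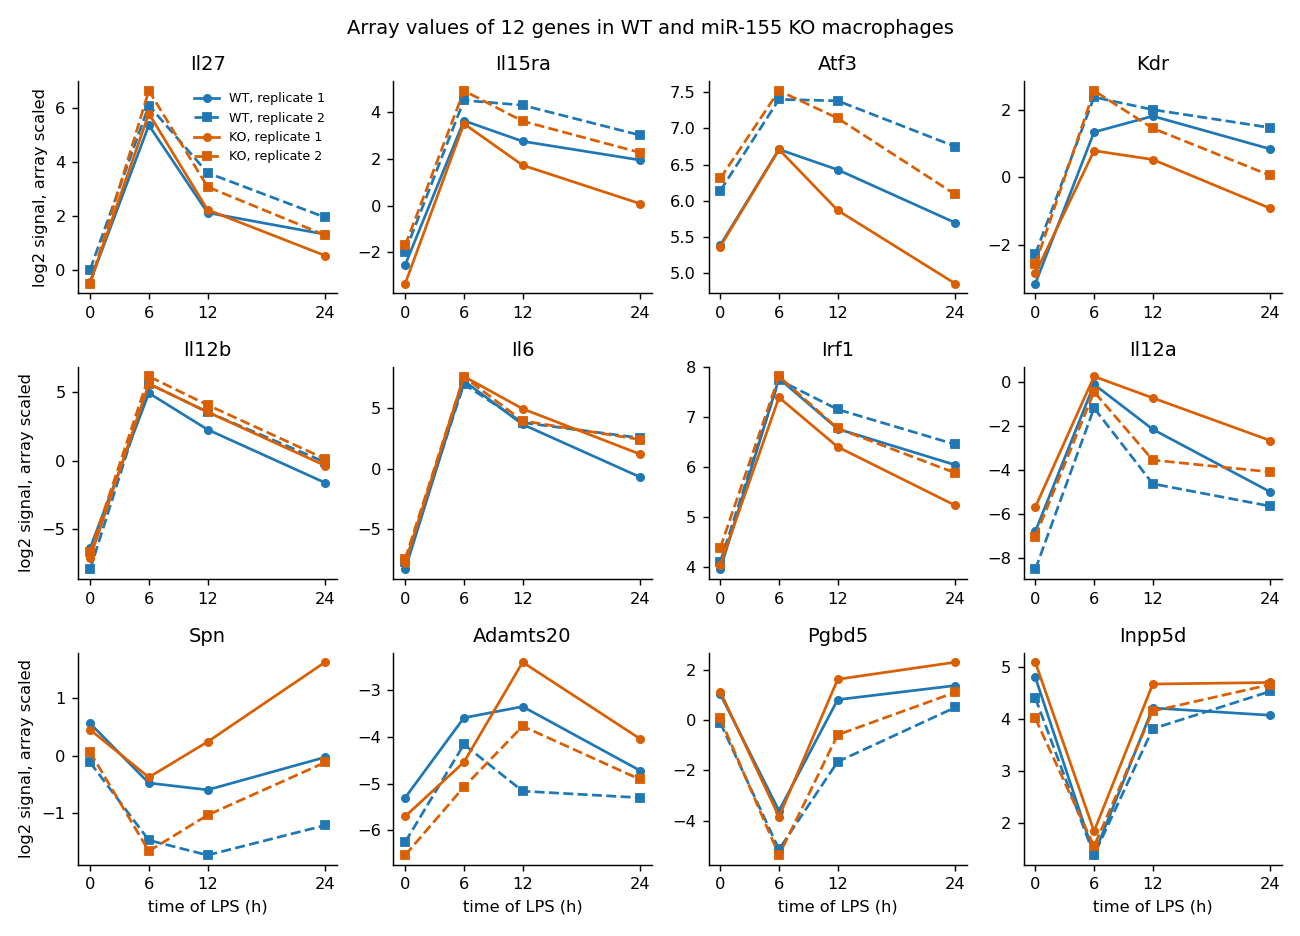
Array values (log2 signal minus the array's 75th percentile) of 12 genes against time of LPS (h), 1 line for each genotype and replicate. For Il27, Il15ra, Atf3 and Kdr the KO lines end below the WT lines of their replicate at 24 h, for Spn, Adamts20 and Il12a they end above them, and for Il12b, Il6 and Inpp5d the difference in the change (0.15, 0.40 and 0.08) is smaller than its standard error (0.81, 1.1 and 0.44).

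The 5 repressed genes with the largest rise averaged over the genotypes rose in each. Pgbd5, a domesticated transposase, was −3.60 and −5.14 in WT at 6 h and 1.38 and 0.51 at 24 h, and in KO −3.84 and −5.37, then 2.31 and 1.11. It rose by 5.32 ± 0.37 in WT and 6.31 ± 0.37 in KO, with a difference of 1.0 (95% interval −0.18 to 2.17). Plekhg3 rose by 5.19 and 5.70, Trib3, a pseudokinase of the amino acid stress response, by 5.22 and 5.05, Tmem86a by 4.77 and 4.79 and the TGF-beta transducer Smad3 by 4.75 and 4.46. The differences of these 4 lay between −0.30 and 0.51.

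Cell cycle genes were mostly repressed at 6 h (40 of 51) and then split, 14 rising and 10 falling in each genotype. Their median difference was 0.01, with −0.18 in session 1 and 0.28 in session 2. Ccnb2, a mitotic cyclin, fell further, by 3.29 in WT and by 3.55 in KO, and the proliferation marker Mki67 by 1.71 and 1.68. Ccnd2, a G1 cyclin induced by LPS, fell in both, with changes of −3.44 and −4.33 (difference −0.89, −2.54 to 0.76), and Ccne1 gave −0.21 and −0.85 without passing. DNA replication genes recovered, 17 of 36 rising in WT and 18 in KO, with medians of 0.71 and 0.85 and a median difference of 0.15. Pcna, Tyms and Rfc3 fell in both genotypes, by 1.0, 1.60 and 1.44 in WT and by 1.44, 1.45 and 1.91 in KO.

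Chaf1b, a histone chaperone of replication, was an exception in the other direction. It was −0.15 and −0.06 in WT at 6 h and 1.78 and 2.02 at 24 h. The KO arrays read −0.88 and −0.76, then −0.12 and 0.45. The KO arrays lay below the WT arrays at both times. It rose by 2.0 in WT and 0.99 in KO, with a difference of −1.02 (95% interval −1.86 to −0.17), not past the threshold. Mcm5, part of the replicative helicase, rose in KO by 1.06 and gave 0.39 in WT (difference 0.67, −0.05 to 1.39).

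Macrophage identity genes showed a median difference of −0.04, with 8 of 33 members falling in WT and 11 in KO (16.1% and 15.9% over all genes). Cebpa, a myeloid transcription factor, was −2.32 and −4.01 in WT at 6 h and 0.94 and −0.65 at 24 h, and in KO −1.77 and −3.90, then 0.78 and −0.57. It rose by 3.31 and 2.94 (difference −0.37, −1.41 to 0.66), and Siglec1 by 1.78 and 1.70. Cd14, the LPS co-receptor, fell by 1.89 in WT and by 1.36 in KO (0.53, −0.41 to 1.48). Csf1r, the M-CSF receptor, gave −0.38 and −0.11, and Tlr4 0.24 and −0.14. Cx3cr1 was not tested.

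Resolution and efferocytosis genes, which serve the clearance of dead cells and the closing of inflammation, had a median difference of −0.04. Of 28 members 10 fell in WT and 11 in KO (16.1% and 15.9% over all genes). Abca1, the cholesterol exporter, rose by 1.19 and 1.12, and Nr1h3, which encodes LXR alpha, by 1.19 and 1.16. Mertk, a receptor for dead cells, fell by 1.38 and 1.43 (difference −0.05, −0.78 to 0.68). Hmox1 (heme oxygenase 1) was 4.58 and 3.37 in WT at 6 h and 7.44 and 6.63 at 24 h, and in KO 7.17 and 3.85, then 6.66 and 6.53. The first KO array at 6 h stood far above the other 6 h arrays. It rose in WT by 3.06 and gave 1.08 in KO, and the difference of −1.98 (−4.48 to 0.52) was −3.37 in session 1 and −0.59 in session 2. Pparg gave 0.60 in WT and −0.16 in KO.

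Of the 14 pathway lists, the interferon-stimulated genes and the DNA replication genes kept the sign of their median difference in all 20 alternatives, and the other lists changed it in at least 1. Some of these alternatives, such as leaving out the replicate number, could not move the estimate. Cholesterol synthesis genes fell, 11 of 24 in WT and 9 in KO, with a median difference of 0.12 that was 0.34 in session 1 and 0.00 in session 2, and −0.45 with the slide as the term. Mvk, mevalonate kinase, gave −0.19 in WT and 0.16 in KO. Glycolysis and hypoxia genes had a median difference of −0.06; the glucose transporter Slc2a1 fell in KO by 1.22 and gave −0.58 in WT, and Pkm gave −0.04 and 0.38. Immediate early and AP-1 genes had a median of −0.08. Klf4 fell in KO by 1.15 and gave −0.49 in WT, and Klf2 fell in WT by 0.89 and gave −0.46 in KO. Alternative activation genes fell in 10 of 19 members in each genotype, with a median difference of −0.09. The mannose receptor Mrc1 fell by 3.79 in WT and by 3.36 in KO, and Arg1, above background on 7 of the 8 arrays, gave 0.11 and 0.62.

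Reported targets of miR-155 moved in either direction from 6 to 24 h, with a median difference equal to that of all genes. Of 60 members tested 15 rose and 14 fell in WT, against 13.9% and 16.1% of all genes. In KO 16 rose and 18 fell, against 16.1% and 15.9%. The median difference was 0.03, with 0.07 and −0.10 by session. A gap between KO and WT that was equal at 6 and 24 h cancels in this difference. The median of KO minus WT over the targets was 0.09 at 6 h and 0.10 at 24 h, against −0.02 and 0.00 over all genes. By session it was −0.01 and 0.15 at 6 h, and 0.10 in each at 24 h. Inpp5d, the lipid phosphatase SHIP1, was 1.40 and 1.39 in WT at 6 h and 4.08 and 4.54 at 24 h. Its KO values were 1.85 and 1.56 at 6 h and 4.71 and 4.67 at 24 h. Its recovery was 2.91 ± 0.31 in WT and 2.99 ± 0.31 in KO, and the difference of 0.08 had an interval of −0.90 to 1.05. Jarid2, a partner of the Polycomb complex, fell by 1.86 and 1.74 (0.12, −0.77 to 1.01). The myeloid transcription factor Spi1 fell in KO by 0.90 and gave −0.69 in WT (−0.22, −1.19 to 0.76).

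Among the other targets, Cebpb and Bach1 passed in neither genotype. Cebpb gave 0.02 in WT and −0.33 in KO (−0.35, −1.09 to 0.39), and Bach1, a repressor of Hmox1, −0.19 and 0.31 (0.50, −0.53 to 1.54). The phosphatase Ptprj fell by 1.13 and 0.61, with a difference of 0.52 (−0.13 to 1.16), and the co-repressor Tle4 by 0.66 and 1.19, with −0.52 (−1.21 to 0.16). Meis1, named because it alone of the list had an unadjusted p under 0.05 by limma, gave −0.64 in WT and 0.90 in KO without passing. That is 1.67% of the list, against 2.19% of all genes. Meis1 was not above background on all 8 arrays, so the size of its changes is uncertain.

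**Figure D5:**
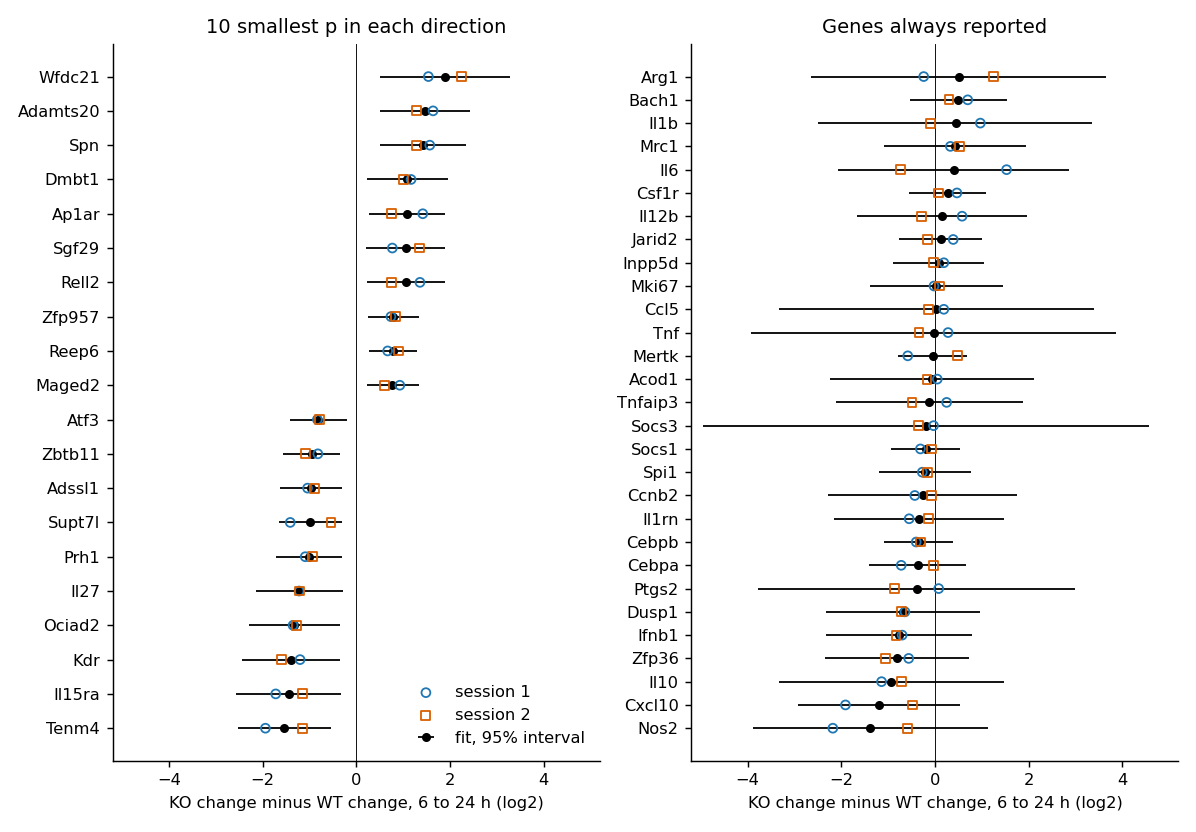
Difference between the KO and the WT change from 6 to 24 h (log2, x axis) with its 95% interval, and the value in each session, for the 10 genes with the smallest p in each direction (left) and the 29 tested genes of a list of 30 always reported (right). On the left the intervals exclude 0 because the genes were chosen for their small p. On the right every interval includes 0, with half-lengths that differ widely between genes, as the ends of 0.53 for Socs1 and 4.57 for Socs3 show. The intervals also hold the spread at 0 h, where Socs3 read −1.57 and 4.25 in WT and −1.73 and 4.57 in KO.

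The samples carried the markers of macrophages. All 10 were above background on all 8 arrays, and their differences between the genotypes split 5 and 5, with a median of 0.04. Their summed signal, in units of the upper quartile of the array, was 2360 to 3400 in WT and 2850 to 3230 in KO at 6 h, and 1490 to 2490 and 1750 to 2700 at 24 h. Neutrophil markers were weaker and followed the session. Of 14, 12 were tested, Elane and Ly6g were not, and 6 were above background throughout. Their summed signal in WT was 48.6 and 4.16 at 6 h and 13.1 and 5.98 at 24 h, and in KO 27.9 and 4.42, then 13.8 and 5.45. Their median difference was 0.17, with 0.51 in session 1, and Camp (1.16) and S100a8 (0.89) did not pass. Wfdc21 and Slc7a11, above, showed a split between sessions in the same direction. So did Bach1, at 3.44 to 4.03 in session 1 and 1.34 to 1.58 in session 2. Whether neutrophils were present or had a part in the results was not tested.

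Markers of other cell types were tested in part. Summed signals over the 8 arrays were 140 to 201 for the B cell markers. Blnk alone read 7.12 to 7.65 in log2, while the median of the tested B cell markers was −4.31 to −2.02. The sums were 45.9 to 200 for the erythroid, megakaryocyte and mast cell markers, whose median was −4.55 to −3.71 in log2. Both sums thus rest on few members and do not show the level of the lists. The sums were 0.172 to 4.83 for T and NK, 2.93 to 19.0 for dendritic and 1.66 to 9.01 for stromal and endothelial markers. Of 11 T and NK markers 5 were tested, and Cd3d, Cd8a and Nkg7 were not; of 10 B cell markers 6 were tested, and Cd79a and Pax5 were not. Of 14 stromal and endothelial markers 10 were tested, with a median difference of −0.02 and Kdr as the member under 0.05 unadjusted. Cdh5 fell in KO by 1.97 and gave −0.76 in WT. Of 12 dendritic markers 9 were tested, with a median of −0.12. Ccl22, also a chemokine of the cytokine list, gave −1.36 without passing the threshold, while falling by 5.65 in WT and by 7.02 in KO. Ccl22 was not above background on all 8 arrays, so the size of its falls and of its difference is uncertain. Of 14 erythroid, megakaryocyte and mast cell markers 5 were tested, with a median of 0.08. In these bulk samples fewer cells of a type and less RNA per cell cannot be told apart.

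The genes with the smallest adjusted p of all were dim, and are named here after their values were seen. Noxa1, an activator of NADPH oxidase, had an adjusted p of 0.0922 and Kcna6, a potassium channel, one of 0.1. Noxa1 was well above background on both WT arrays at 6 h (−4.07 and −4.93), on 1 KO array at 24 h (−5.06, with −6.32 on the other) and on no array of the other groups, which stood at −5.84 and −7.34 in WT at 24 h and −6.26 and −7.35 in KO at 6 h. Kcna6 was above background on both KO arrays at 24 h (−3.52 and −4.01) and on the first WT array at 6 h (−4.41, with −5.66 on the second), and on no array of WT at 24 h (−6.79 and −8.03) or KO at 6 h (−6.56 and −7.62). Where a group was dim only a bound can be given, the mean of the bright group over, on each dim array, the higher of the gene's own signal and the lowest signal well above background. By that bound Kcna6 was at least 4.06-fold higher at 24 h than at 6 h in KO, and Noxa1 at least 2.81-fold lower in WT. For Kcna6 in WT and Noxa1 in KO the bright group held 1 array not above background, entered at its own value. The same reckoning gave 2.01-fold lower for Kcna6 in WT and 1.07-fold higher for Noxa1 in KO, which are no strict bounds.

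Noxa1, Kcna6, Nr0b2 and Zap70 were the 4 genes called by the fit in opposite directions, lower in WT and higher in KO, and each was above background on only 3 of the 8 arrays. For Nr0b2 no bound above 1 could be given for the rise in KO, and Zap70 was at least 1.83-fold higher at 24 h in KO. In WT the same reckoning gave 2.05-fold lower for Zap70, no strict bound, as only 1 of the 2 arrays at 6 h was above background. With quantile normalization Noxa1 and Kcna6 passed (adjusted p = 0.0119 for each). At 6 h Noxa1 was at least 2.44-fold lower in KO than in WT (adjusted p = 0.0394). The other gene that differed at 6 h, Rptoros, named as a transcript opposite to Rptor, was −1.04 and −0.15 in KO and −5.59 and −5.12 in WT. Of these WT arrays 1 was above background, and the fitted gap was 4.76 ± 0.47 (adjusted p = 0.0355). By 24 h Rptoros was −5.07 and −2.64 in KO and on neither WT array above background, at least 4.57-fold higher in KO. Its difference in the change was −0.81 ± 0.67.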

How the data were processed

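RNA of each sample was hybridised to a single-colour Agilent mouse array. Per the file headers, Agilent Feature Extraction 10.5.1.1 detrended and background-subtracted the spots, with a surrogate for dim ones, and the deposited processed signal is an intensity on a linear scale. The authors' deposited table holds the same values as log2 scaled to the 75th percentile (slope and r of 1 against the scanner values) and served as an alternative. Here log2 of the processed signal minus each array's 75th percentile was taken, control spots and outlier spots were left out, and 41077 of 41174 probes had a value on all arrays (97 left out). A gene was represented by 1 probe, and 17917 genes with a detected probe were tested. Symbols were updated through RefSeq for GRCm38.p6 through accessions, symbols and synonyms, while 8357 probes keep their original names.

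All 16 arrays were fitted together with limma 3.58.1 in R 4.3.3, with 8 group means and the replicate number as a term, which left 7 residual degrees of freedom plus 2.61 from the prior, with Benjamini-Hochberg adjustment over all genes tested. Same-numbered arrays deviated together: the correlation of their deviations was 0.4 to 0.838 over 28 pairs of groups, and the number is also the scan session, so the numbers were taken as pairing the arrays. The design holds 2 arrays a group, which limits the precision. Induced and repressed genes passed at 6 h against 0 h over both genotypes with a log2 change of at least 1.

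The genes named are those with the smallest p of each direction and the same sign in both replicates (10 each), the 5 largest falls of induced and rises of repressed genes, the 2 smallest p of each list, and 30 always reported; others are said to be chosen after their values were seen, or are the few members behind a small count, which were also named after their values were seen. The members, the lists and the named genes were chosen with earlier results of these data known. Alternatives were other scalings, background corrections, probe filters, terms of the fit and each array left out. The fit was tested on simulated data. Some of the genes this rule names are not reported here.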

Additional observations from a re-analysis of the deposited data

How the results depend on the processing

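The count of genes whose change differed between the genotypes was 0 under 19 of the 20 alternatives and 2 under quantile normalization; at an unadjusted p under 0.05 limma gave 80 genes without the replicate block, 614 with the slide as the term, 2 with normexp background correction and 337 to 683 with 1 array left out. Genes changed from 6 to 24 h in WT numbered 1869 with no replicate block, 120 with normexp, and 2754 to 5219 with 1 array left out, the fewest without a WT array (2974 and 3267 without the first and second at 6 h, 2754 and 3414 at 24 h). In KO they numbered 2299 with no replicate block, 91 with normexp, and 3225 to 5474 with 1 array left out (3225 and 3587 without the first KO array at 6 and at 24 h). With normexp 1390 genes were induced and 1223 repressed, and 1899 were repressed when the local background was capped, a setting chosen after seeing the data because 3 arrays hold single spots with a very high local background. With the classes drawn anew under each setting, the median difference of the induced genes was 0.08 with the slide, −0.23 under median scaling, −0.18 with normexp, and −0.23 to 0.00 with 1 array left out. That of the repressed genes was −0.03 with the slide, −0.02 under median scaling, 0.07 with quantile normalization or normexp, 0.05 with capped normexp, 0.09 with probes or members above background on all 8 arrays, 0.16 with a log2 change of at least 2, and 0.02 to 0.24 with 1 array left out. For the same genes throughout, the medians were 0.04 and −0.01 with the slide and 0.03 and 0.34 with normexp, which turned the sign of the induced class. The cause of these shifts was not tested. Of 93 named genes tested, 39 changed sign under at least 1 alternative, among them 1 of the 20 with the smallest p, and 0 were called by limma under any (smallest adjusted p 0.999). With 2 arrays a group and 7 residual degrees of freedom, the 95% interval of the difference reached a median of 0.86 to either side for genes above background, and dim genes give bounds only.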
